A study of Mus musculus with 4 samples.

Results

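The Cacng genes encode the gamma subunits and gamma-like proteins of voltage-gated calcium channels. Counts were found for all 8 members, Cacng1 to Cacng8, by gene symbol, of 49993 genes in all. The family was picked for Cacng6, whose reads differed between the groups in these same libraries, so that the AD/KO values of Cacng6 are given as a description with no test. The other 7 members were selected by family name.

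RNA was sequenced from CD11b+ microglia, pulled out of the brain with magnetic beads, of mice aged 10 months. Every mouse carried the APP/PS1 transgenes, which cause amyloid to build up in the brain. The AD group (n = 2 libraries) had intact asrij, with genotype APP/PS1+ asrij+/+. In the AD/KO group (n = 2 libraries) asrij was deleted in all cells of the body, with genotype APP/PS1+ asrij-/-. The number of mice behind a library, the sex of the mice and the promoters of the transgenes are not given in the sources used here. P-values therefore measure only the spread between these libraries, which may in part be technical.

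Cacng proteins have 4 membrane-spanning segments, like the claudins and PMP22. Cacng2 (stargazin), Cacng3, Cacng4 and Cacng8 are transmembrane AMPA receptor regulatory proteins, which bring AMPA-type glutamate receptors to the surface and to synapses and slow their gating. Cacng5 and Cacng7 belong to a second class of these regulators. Cacng1 is the gamma subunit of the skeletal muscle L-type calcium channel, and Cacng6 is usually classed with it, apart from the AMPA receptor regulators. Apart from Cacng1 and Cacng6, the members are known chiefly as genes of neurons and glia, not of microglia.

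Libraries held from 13102622 to 19810076 reads, and 3 reads, taken as the floor, correspond to between 0.156 and 0.218 CPM (reads scaled to a common library size). The 12 homeostatic microglia markers were detected in every library, with summed levels from 5723 CPM in AD/KO replicate 2 to 19793 CPM in AD/KO replicate 1. The libraries also held RNA of other brain cells. The 12 neuron markers summed to 399.99 and 1368 CPM in the AD libraries (replicates 1 and 2, the order kept below) and 1048 and 3143 CPM in the AD/KO libraries. The 10 astrocyte markers ran from 1946 to 12250 CPM, lowest and highest in the same libraries. AD replicate 2 stood apart in neutrophil markers, at 4860 CPM against 349.9 to 561 in the others, and in Xist, with 1391 reads against 3 to 15. The deleted gene, Ociad1 (asrij), still had 691 and 1032 reads in AD and 746 and 592 in AD/KO. In CPM these were 50.2 and 63.4 in AD and 38.9 and 32.1 in AD/KO, lower in both AD/KO libraries but not lost, so that AD/KO below means the libraries labelled AD/KO. In bulk RNA, fewer cells of a type and less RNA per cell cannot be told apart.

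Cacng6, Cacng7 and Cacng8 form a cluster on chromosome 7 in which only Cacng6 was near 0 reads in AD. Their promoters are shown because the members of this cluster share a strand and a neighbourhood and yet differed in their reads. Each run covers 250 bases before to 50 bases after the start site, 5′ to 3′ on the + strand, from RefSeq for GRCm38.p6, with CG dinucleotides in capitals. The windows are chr7:3332575-3332874 for Cacng7, chr7:3393792-3394091 for Cacng8 and chr7:3424412-3424711 for Cacng6.
Cacng7: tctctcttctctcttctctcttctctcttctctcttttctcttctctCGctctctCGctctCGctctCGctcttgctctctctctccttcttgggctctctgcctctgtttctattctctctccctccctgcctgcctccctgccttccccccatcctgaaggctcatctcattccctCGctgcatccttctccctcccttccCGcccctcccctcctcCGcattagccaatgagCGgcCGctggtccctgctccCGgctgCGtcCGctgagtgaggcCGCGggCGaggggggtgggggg
Cacng8: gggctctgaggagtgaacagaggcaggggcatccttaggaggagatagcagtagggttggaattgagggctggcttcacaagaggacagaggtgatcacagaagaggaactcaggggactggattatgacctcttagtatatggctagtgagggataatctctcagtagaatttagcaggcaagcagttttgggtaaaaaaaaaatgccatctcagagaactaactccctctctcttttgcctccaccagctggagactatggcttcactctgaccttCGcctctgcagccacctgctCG
Cacng6: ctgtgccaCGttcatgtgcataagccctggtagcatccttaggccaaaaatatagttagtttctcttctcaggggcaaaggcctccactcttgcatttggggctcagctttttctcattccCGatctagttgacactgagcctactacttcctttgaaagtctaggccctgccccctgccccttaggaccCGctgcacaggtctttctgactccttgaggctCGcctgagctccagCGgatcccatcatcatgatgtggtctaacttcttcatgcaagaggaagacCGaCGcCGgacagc
The Cacng7 window holds 15 CG dinucleotides, the Cacng8 window 2 and the Cacng6 window 8, and the median of 32851 RefSeq promoter windows is 7. The ETS-type motif GAGGAAG, of the kind bound by the myeloid factor PU.1, was searched on both strands and occurs once in the Cacng6 window, starting 27 bases after the start site. It is not in the other pair, and 13.6% of all windows hold it. The muscle-type E-box CAGCTG is not in the Cacng6 or Cacng7 window and occurs once in that of Cacng8, against 16.3% of all windows. These matches describe letters only. The start sites used in that table, 3424662 for Cacng6 and 3332825 for Cacng7, lie inside the extents of these genes, which begin earlier.

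Cacng6 (gene ID 54378, GRCm38.p6, chromosome 7, 3423588 to 3435667, + strand, protein-coding, 4 exons) had 0 reads in AD replicate 1 and a single read (1) in AD replicate 2, while AD/KO held 37 and 94. Both AD libraries lay at or under the floor of 3 reads and both AD/KO libraries lay well above it. On the CPM scale the AD/KO libraries stood at 1.93 and 5.10. Their mean was at least 16.1-fold higher than AD, with AD taken at the higher floor of its libraries, 0.218 CPM. Taken alone, AD/KO replicate 1 was at least 8.86-fold higher and AD/KO replicate 2 at least 23.4-fold higher. These minimums hold for AD at the floor and do not cover counting error. AD/KO replicate 2 was 2.64 times AD/KO replicate 1.

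The neuronal and glial paralogs were already expressed in AD. Cacng7, an AMPA receptor regulator of the second class (gene ID 81904, chromosome 7, 3332027 to 3368221), had the most reads of the family, with 242 and 902 in AD and 996 and 2638 in AD/KO. Cacng8, known for its high level in the hippocampus (gene ID 81905, chromosome 7, 3394042 to 3416266), had 126 and 319 reads in AD and 374 and 1139 in AD/KO. Both genes showed the same layout, lowest in AD replicate 1, highest in AD/KO replicate 2 and alike in the remaining pair of libraries. In CPM, AD replicate 2 and AD/KO replicate 1 had 55.4 and 51.9 CPM of Cacng7 and 19.6 and 19.5 CPM of Cacng8, so that the groups overlapped.

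Cacng4, which is expressed in glial precursors as well as in neurons (gene ID 54377, chromosome 11, 107732357 to 107794706, − strand), had 68 and 262 reads in AD and 334 and 770 in AD/KO. Cacng2, the protein lost in the ataxic stargazer mouse (gene ID 12300, chromosome 15, 77991919 to 78120220, − strand), had 38 and 257 reads in AD and 196 and 504 in AD/KO. An antisense gene, A730060N03Rik, covers 5.86% of the Cacng2 transcript, and whether the counting used strand is not given in the sources used here. Cacng3, a regulator of forebrain synapses (gene ID 54376, chromosome 7, 122671744 to 122769393, + strand), had 23 and 66 reads in AD and 83 and 260 in AD/KO. For Cacng2 the groups overlapped. For Cacng3 and Cacng4 they did not, but AD/KO replicate 1 exceeded AD replicate 2 by only 1.07 times and 1.08 times in CPM.

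Cacng5, the other regulator of the second class (gene ID 140723, chromosome 11, 107874604 to 107915055, − strand), had 10 and 22 reads in AD and 59 and 146 in AD/KO. Its AD/KO libraries, at 3.08 and 7.92 CPM, lay above its AD libraries, at 0.726 and 1.35 CPM. Cacng1, the muscle channel subunit (gene ID 12299, chromosome 11, 107703218 to 107716476, − strand), had 3 and 1 reads in AD and 5 and 1 in AD/KO. It was at or near the floor in every library and had too few reads to be tested, so that no fold is given for it.

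Compared per length of transcript (RPKM, CPM divided by the kb of transcript, mean ± SD, n = 2), the order in AD was Cacng7 at 16.5 ± 12.1, Cacng8 at 10.4 ± 5.36, Cacng4 at 3.01 ± 2.26, Cacng2 at 1.68 ± 1.67, Cacng3 at 1.03 ± 0.608 and Cacng5 at 0.280 ± 0.120, with Cacng1 and Cacng6 at the floor. In AD/KO the order was Cacng7 at 44.1 ± 29.2, Cacng8 at 29.5 ± 21.7, Cacng4 at 8.46 ± 4.92, Cacng2 at 3.41 ± 2.20, Cacng3 at 3.32 ± 2.49, Cacng6 at 1.78 ± 1.13 and Cacng5 at 1.48 ± 0.925, with Cacng1 last at 0.126 ± 0.117. Neighbours in these orders mostly differed by less than the larger of their SDs. Exceptions were Cacng8 against Cacng4 in AD, Cacng4 against Cacng2 in AD/KO, Cacng3 against Cacng5 in AD and Cacng5 against Cacng1 in both groups. Cacng6 is the member whose place changed, from last to a level within the spread of Cacng5. Levels per length of Cacng8 are approximate, because the transcript used, of 1380 bases, ends before the RefSeq gene does.

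**Figure D1:**
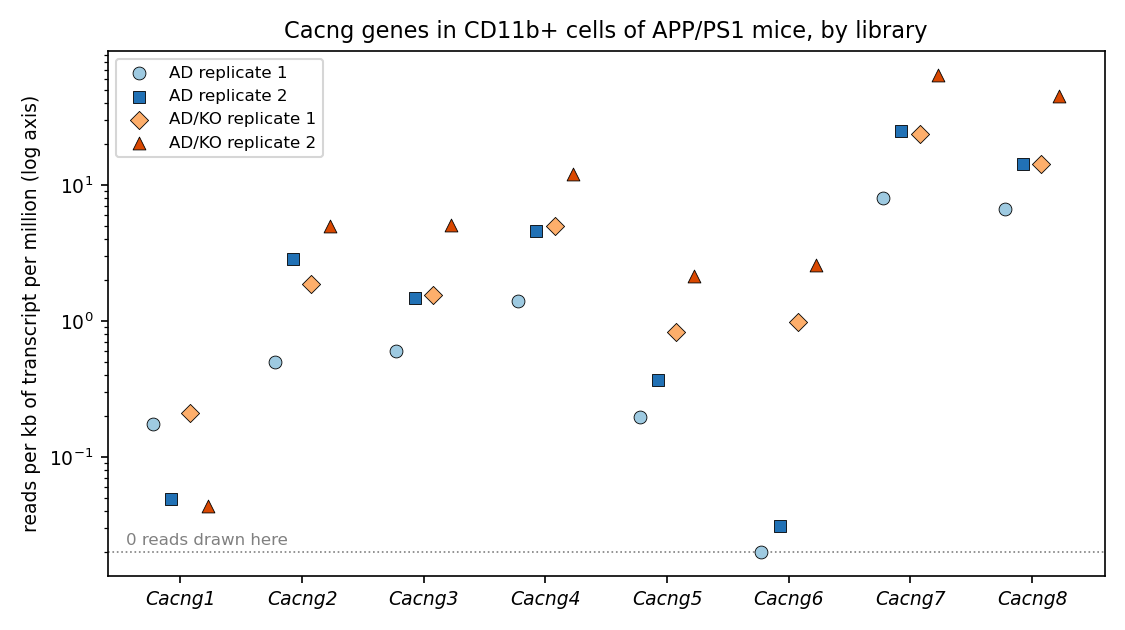
Level of each Cacng gene in each library, in RPKM on a log axis, with a value of 0 drawn on the dotted line. In Cacng7 and Cacng8 the AD replicate 2 and AD/KO replicate 1 points lie side by side, while in Cacng6 both AD points lie at the bottom and both AD/KO points at 0.976 and 2.58.

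The 6 paralogs with enough reads were tested within the fit of all genes. Their log2 fold changes (AD/KO over AD) were all above 0, from 1.01 (SE 0.94) for Cacng2 to 2.39 (SE 0.75) for Cacng5, with a median of 1.49. The median of all 21439 genes tested was −0.05, and 47.2% of genes were above 0. With edgeR (quasi-likelihood test, Benjamini-Hochberg adjustment over all genes), 0 of the 6 passed the threshold of 0.05, against 0% of all genes tested (0 of 21439), and the adjusted p was 0.680 for Cacng3, Cacng4, Cacng5, Cacng7 and Cacng8 and 0.713 for Cacng2. Many genes of this fit shared the adjusted p of 0.680, also some with larger changes, so it does not set the paralogs apart. Cst7, a disease-associated microglia marker, had it at a log2 fold change of −4.95 (SE 0.47). At an unadjusted p under 0.05 the count was 1 of 6 (Cacng5), against 5% of all genes. DESeq2 called 0 of the 6 and 0.465% of all genes. With the replicate number as a block, edgeR called 6 of the 6, all higher in AD/KO, against 20.2% of all genes in either direction and 13.4% higher, but the labels tie no replicate number to a shared mouse, litter or day. Both AD/KO libraries lay above both AD libraries for Cacng3, Cacng4 and Cacng5, 3 of the 6, against 20.3% of all genes. With AD/KO replicate 2 left out the median of the 6 was 0.56, with AD replicate 1 left out 0.94, and with AD replicate 2 left out 2.58.

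Each of the 6 paralogs was lowest in AD replicate 1 and highest in AD/KO replicate 2, as were the neuron markers. All 12 neuron markers tested had a log2 fold change above 0, with a median of 1.37, and 0 passed the threshold (edgeR quasi-likelihood). The 8 inhibitory neuron markers had a median of 1.76, the 8 excitatory neuron markers 1.47 and the 10 astrocyte markers 1.40. The median was lower for the 9 cerebellar neuron markers, at 0.78, so that the neuron lists did not all move alike. It was 0.61 for the 7 markers of oligodendrocyte precursors and 0.33 for the 9 oligodendrocyte markers. The part of other brain cells in the paralogs' differences was not tested, but each member can be set against the neuron markers of its own library.

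Per 1000 reads of the 12 neuron markers, Cacng7 had 43.9 and 40.5 reads in AD and 49.6 and 45.5 in AD/KO, a span of 1.22 times over the 4 libraries. Cacng4 spanned 1.41 times, Cacng3 1.51 times, Cacng8 1.59 times and Cacng2 1.67 times. Cacng5 varied more, with 1.81 and 0.989 reads in AD and 2.94 and 2.52 in AD/KO, a span of 2.97 times. The ratio of these members to the neuron markers, Cacng5 excepted, varied by at most 1.67 times, while the summed markers themselves ran from 399.99 to 3143 CPM. Astrocyte markers, at 1946 and 4614 CPM in AD and 4790 and 12250 in AD/KO, were lowest and highest in the same libraries. Ratios to them were not computed, so a steady ratio is not shown to be particular to neurons.

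Cacng6 did not hold such a ratio. Per 1000 neuron marker reads, AD replicate 1 had 0 reads (exact Clopper-Pearson 95% interval 0 to 0.67) and AD replicate 2 had 0.045 (0.0011 to 0.25). AD/KO replicate 1 had 1.84 (1.3 to 2.54) and AD/KO replicate 2 had 1.62 (1.31 to 1.99). The AD/KO libraries are alike on this scale although their neuron marker levels differ. The intervals cover counting error only and are no test between the groups, since Cacng6 was picked for this difference. On this scale both AD/KO libraries also lay above both AD libraries for Cacng4, Cacng5 and Cacng7, against 6.08% of all genes tested.

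**Figure D2:**
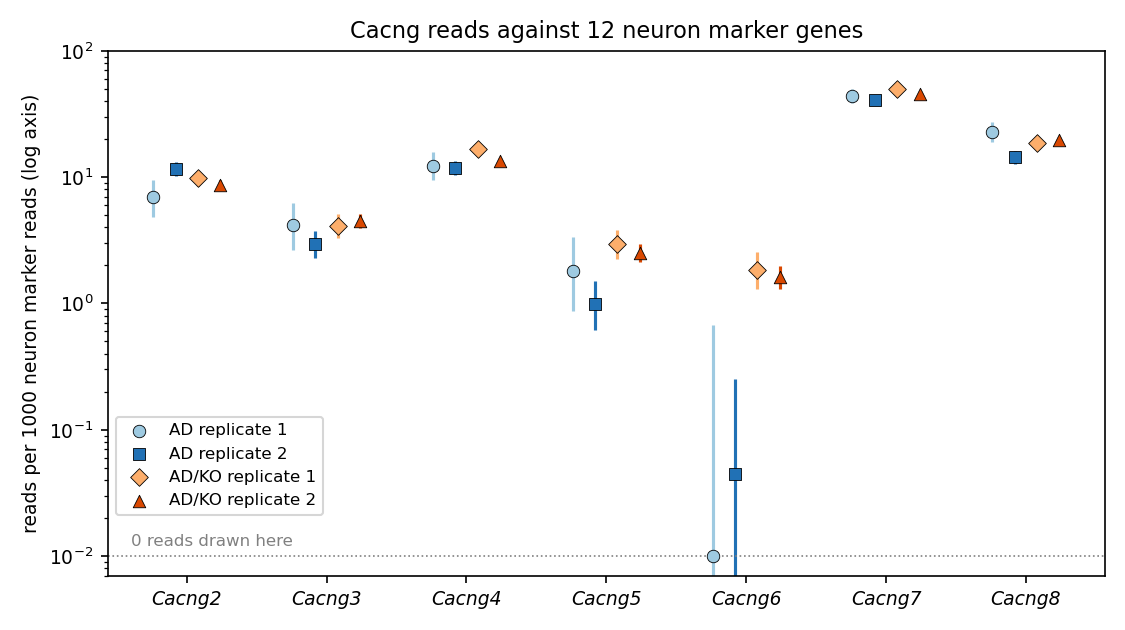
Reads of 7 Cacng genes per 1000 reads of the 12 neuron markers in the same library, on a log axis, with exact 95% intervals for counting error as vertical lines and a value of 0 drawn on the dotted line. The points of Cacng7 lie between 40.5 and 49.6 in all libraries, while Cacng6 lies at 0 and 0.045 in AD and at 1.84 and 1.62 in AD/KO.

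Counting within the family, on the same Cacng6 reads, gave the same layout and needs no scaling between libraries. It is no separate support, since Cacng6 was picked for its difference between the groups. Cacng6 made up 0 of 510 Cacng reads in AD replicate 1, where 3 reads would be a share of 0.588% and the exact Clopper-Pearson 95% interval reaches 0.721%. It made up 1 of 1830 reads in AD replicate 2, 0.0546% (0.0014% to 0.304%). In AD/KO it made up 37 of 2084 reads, 1.78% (1.25% to 2.44%), and 94 of 5552 reads, 1.69% (1.37% to 2.07%). The mean share was 0.027% ± 0.039 (SD, n = 2) in AD and 1.73% ± 0.058 (SD, n = 2) in AD/KO. At the pooled ratio of Cacng6 to the other members in AD/KO, the AD libraries would have held 8.90 and 31.9 Cacng6 reads. They held 0 and 1. That ratio comes from the group where Cacng6 was high, so the shortfall restates its selection and is no test.

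**Figure D3:**
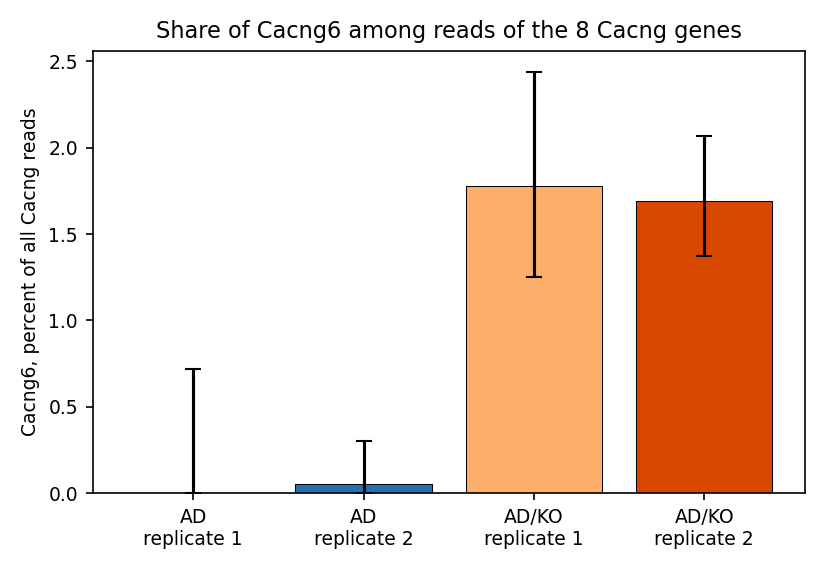
Reads of Cacng6 as a percentage of all reads of the 8 Cacng genes in each library, with exact 95% intervals for counting error. The AD/KO bars stand at 1.78% and 1.69%, and the AD bars at 0% and 0.0546%.

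AD replicate 2 and AD/KO replicate 1 were set side by side because their summed levels of neuron and astrocyte markers were close. This pair was chosen after the values were seen and has no replicate check. The summed levels were 1368 and 1048 CPM for neuron markers, 899.99 and 832.9 for excitatory neuron markers, 57.3 and 62.7 for inhibitory neuron markers and 4614 and 4790 for astrocyte markers. AD/KO replicate 1 over AD replicate 2 was 0.647 for Cacng2, 0.937 for Cacng7, 0.994 for Cacng8, 1.07 for Cacng3, 1.08 for Cacng4 and 2.27 for Cacng5. For Cacng6 it was at least 10.5-fold higher, with AD replicate 2 at the floor, a minimum that does not cover counting error. Other lists differed more within the pair. Neutrophil markers were at 4860 CPM in AD replicate 2 and 504 in AD/KO replicate 1, and erythroid markers at 1723 and 436. Disease-associated microglia markers were at 598 and 146 CPM, homeostatic microglia markers at 13240 and 19793, and Xist at 1391 and 15 reads. Cerebellar neuron markers were at 247 and 125 CPM, markers of oligodendrocyte precursors at 102 and 47.8, oligodendrocyte markers at 2648 and 3927, and ependymal and choroid plexus markers at 27.8 and 17.8.

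The AMPA receptor genes with which the paralogs work had differences of a like size. Of 29 genes in the AMPA receptor lists (pore-forming subunits, other auxiliary proteins, and scaffold and trafficking proteins), 28 had a log2 fold change above 0, with a median of 1.51, and in 18 (against 20.3% of all genes) both AD/KO libraries lay above both AD libraries. None passed the threshold (0 of 29, edgeR quasi-likelihood). Gria1, the most abundant pore-forming subunit here, had 642 and 1902 reads in AD and 3564 and 8593 in AD/KO. Its log2 fold change was 2.0 (SE 0.69). Gria2, the subunit that makes the receptor impermeable to calcium, had 237 and 1517 reads in AD and 2033 and 3842 in AD/KO. Its log2 fold change was 1.51 (SE 0.86). Both were lowest in AD replicate 1 and highest in AD/KO replicate 2.

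Among other AMPA receptor auxiliary proteins, Shisa7 averaged 24.9 ± 11.9 CPM (SD, n = 2) in AD and 94.8 ± 60.2 in AD/KO, and Cpt1c, which binds the receptor in the endoplasmic reticulum, at 33.2 ± 27.5 and 88.4 ± 51.5. Of the scaffold genes, Dlg4, which encodes PSD-95 and anchors the regulators at the synapse, was at 132 ± 63.8 CPM in AD and 358 ± 221 in AD/KO, and Dlg2 at 89.3 ± 60.1 and 223 ± 141. In each of these genes the SD of AD/KO was more than that of AD, since AD/KO replicate 2 lay far above AD/KO replicate 1.

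Most calcium channel genes had the same direction. Of 18 genes of alpha-1, beta and alpha-2-delta subunits, 17 had a log2 fold change above 0, with a median of 1.43, and in 9 (against 20.3% of all genes) both AD/KO libraries lay above both AD libraries. None passed the threshold (0 of 18, edgeR quasi-likelihood). Cacna1a, the pore of P/Q-type channels, had 4393 and 9311 reads in AD and 5596 and 14045 in AD/KO, with a log2 fold change of 0.24 (SE 0.64), well under the median of the list. Cacna1e, the pore of R-type channels, had 587 and 2892 reads in AD and 3764 and 9920 in AD/KO. The beta subunit Cacnb3 averaged 31.8 ± 22.5 CPM (SD, n = 2) in AD and 100.1 ± 68.8 in AD/KO, and Cacnb1, which also serves the skeletal muscle channel, at 18.2 ± 10.4 and 63.99 ± 38.4. The alpha-2-delta subunits Cacna2d2 and Cacna2d3 had log2 fold changes of 1.48 (SE 0.87) and 2.04 (SE 0.88).

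The pore of the skeletal muscle channel, Cacna1s, did not have the layout of Cacng6. It had 74 and 49 reads in AD and 106 and 60 in AD/KO. Its log2 fold change was 0.07 (SE 0.57, adjusted p = 0.965, edgeR quasi-likelihood). Of 14 skeletal and cardiac muscle markers, 4, 3, 1 and 1 were at 0 reads in the libraries in the order above. Of the 14, 8 were tested, 3 of them had a log2 fold change above 0, and the median was −0.19. Acta1 was among the 3, with 1 and 13 reads in AD and 14 and 58 in AD/KO. Ckm, the creatine kinase of muscle, had 1 read in AD/KO replicate 1 and 0 in the others. In that order, Myh1 had 0, 0, 4 and 2 reads, Myh2 0, 2, 5 and 8, and Myl1 0, 8, 4 and 20. Myh4 had 3, 0, 0 and 3, and Mylpf 4, 5, 2 and 1. The muscle list summed to 26.1 and 57.96 CPM in AD and 90.1 and 222 in AD/KO, and Ryr1, a calcium release channel that neurons express as well, made up most of this in the libraries other than AD replicate 1, with 92 and 609 reads in AD and 1366 and 3708 in AD/KO. Without Ryr1 the list had 268 and 334 reads in AD and 363 and 388 in AD/KO. These are raw reads, not scaled for depth. The libraries held 13102622 and 15928196 reads in total in AD and 19302474 and 19810076 in AD/KO. Among other lists, oligodendrocyte markers stood at 1648 and 2648 CPM in AD and 3927 and 8566 in AD/KO. Ependymal and choroid plexus markers stood at 19.1 and 27.8 CPM in AD and 17.8 and 41.4 in AD/KO, and those of blood vessels at 57.7 and 85.4 in AD and 68.9 and 130.2 in AD/KO. The part of these cells in the Cacng6 values was not tested. The 10 disease-associated microglia markers ran the other way, at 582 and 598 CPM in AD and 146 and 177 in AD/KO.

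Other proteins of the same 4-transmembrane fold lacked this shared direction. Of 9 such genes, 5 were tested, 1 had a log2 fold change above 0 and the median was −0.62. Pmp22, a myelin protein, had 2306 and 2501 reads in AD and 2883 and 896 in AD/KO. Emp2 had 81 and 247 reads in AD and 175 and 578 in AD/KO and was the one above 0. None passed the threshold (0 of 5, edgeR quasi-likelihood).

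With libraries scaled to the neuron markers in place of all genes, the median over all genes was −1.54 on the log2 scale, and values on that scale are read against the neuron markers. The 6 paralogs then had log2 fold changes from −0.17 (Cacng2) to 0.83 (Cacng5), with a median of 0.07. Cacng2 and Cacng8 (−0.11) changed direction. The median was 0.05 for the AMPA receptor lists and 0.02 for the calcium channel lists. Single genes spread widely around these medians. The AMPA receptor lists ran from −1.68 (Abhd6) to 1.15 (Nptx2), and the calcium channel lists from −1.71 (Cacna1d) to 1.02 (Cacna1h). The value of Nptx2 was the largest among all 52 partner genes tested. The fitted value of Cacng6 was 5.34 on this scale, against 6.45 with scaling to all genes. These fitted values rest on an AD group at the floor and depend on the prior count, so that they are no bound.

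**Figure D4:**
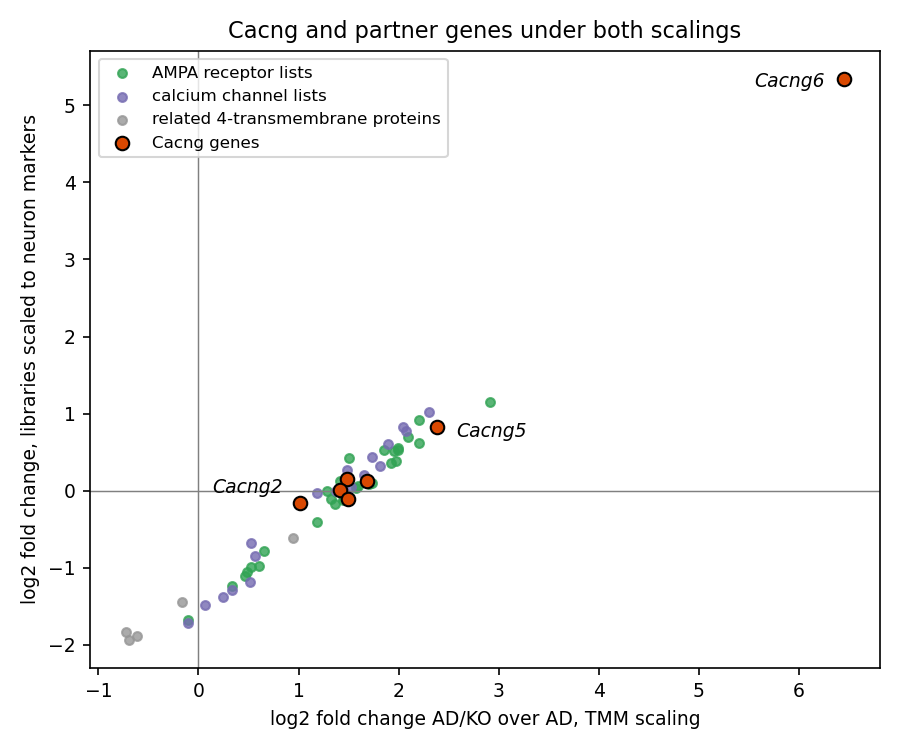
Log2 fold change (AD/KO over AD) of the tested Cacng genes and partner genes, with TMM scaling on the x axis and scaling to the neuron markers on the y axis. On the y axis the 6 tested paralogs lie from −0.17 (Cacng2) to 0.83 (Cacng5). The AMPA receptor genes spread from −1.68 (Abhd6) to 1.15 (Nptx2). Cacng6 lies apart at 5.34, a fitted value that depends on the prior count.

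The position of Cacng6 was examined next. It starts 7321 bases past the end of Cacng8, which lies upstream on the same strand. Cacng8 had 319 reads in AD replicate 2 and 374 in AD/KO replicate 1, where Cacng6 had 1 and 37. The long non-coding gene 3300002P13Rik starts 1.92 kb before Cacng6 and had 9 and 40 reads in AD and 32 and 109 in AD/KO, so that its groups overlapped. The nearest annotated genes on the other side, Gm35037 and Gm45920, had at most 2 reads in any library, as did Gm23450, a miRNA gene inside Cacng8 with 0 reads in all. Neither Cacng8 nor 3300002P13Rik therefore had the layout of Cacng6.

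Within 100 kb of the ends of the cluster, 9 genes outside the family are reported, of which 3 were tested and 0 passed the threshold (edgeR quasi-likelihood). The log2 fold change was above 0 for 1 of them, 3300002P13Rik, at 1.27. In the other two the CPM of each AD/KO library was below that of each AD library, against 21.7% of all genes. Myadm, a membrane protein of myeloid cells, had 1375 and 1503 reads in AD and 1735 and 696 in AD/KO, with a log2 fold change of −0.58. Tarm1, a receptor of myeloid cells, had 17 and 48 reads in AD and 6 and 18 in AD/KO, with a log2 fold change of −1.69.

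**Figure D5:**
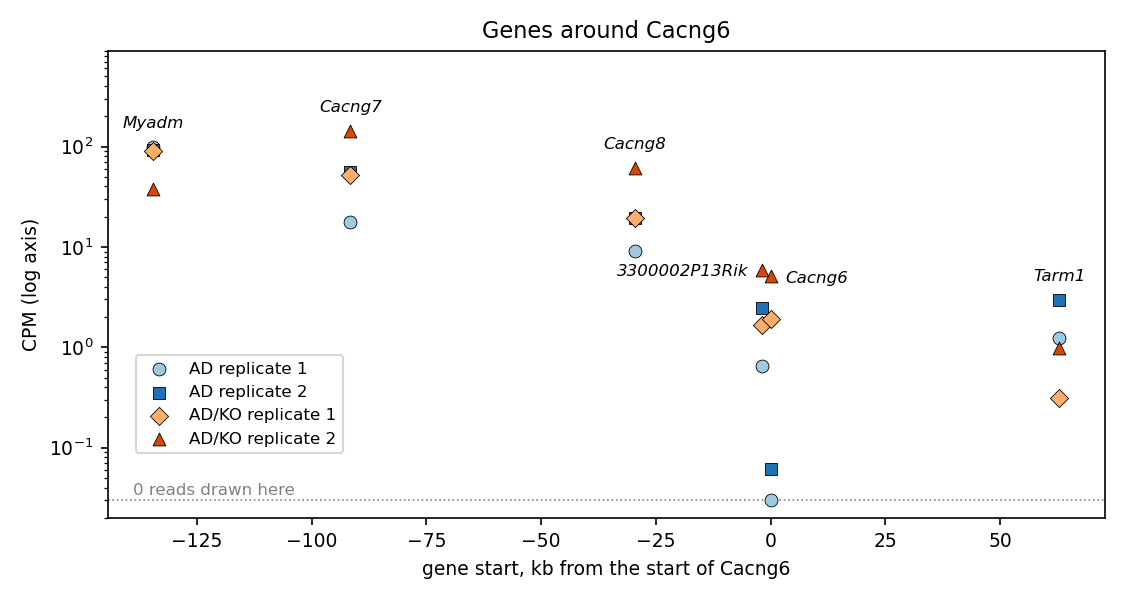
Level in CPM on a log axis of genes around Cacng6, against the distance of their start from that of Cacng6 in kb, with 0 drawn on the dotted line. 3300002P13Rik, next to Cacng6, has AD points at 0.653 and 2.46, while Cacng6 has AD points at 0 and 0.061.

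The members differ widely in sequence. The Cacng6 coding sequence of 780 bases matched the others at 51.1% (Cacng7) to 58.7% (Cacng8) of aligned bases, and Cacng1 at 54.1%, so that Cacng1 was not the nearest to Cacng6 by this measure. The most alike pairs were Cacng2 with Cacng3 at 72.1% and Cacng5 with Cacng7 at 71.8%. The Cacng6 transcript had 0 matches in other genes when stretches of 100 bases or more with 95% identity or more were sought, and no annotated gene overlapped it.

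The genes whose pattern over the 4 libraries was most like that of Cacng6 were sought among all genes tested, by the root mean square distance of centred log2 CPM. The nearest was 1700071K01Rik, at 0.46, with 0 and 3 reads in AD and 25 and 94 in AD/KO. It was followed by the long non-coding gene Gm34354, at 0.61, with 0 and 0 reads in AD and 17 and 28 in AD/KO, and by Gm51571, at 0.63, with 0 and 4 reads in AD and 28 and 59 in AD/KO. Kcnk4, a two-pore potassium channel of neurons, had 3 and 12 reads in AD and 60 and 163 in AD/KO, and Slc26a4, the anion exchanger pendrin, had 1 and 5 reads in AD and 31 and 78 in AD/KO. Both stood at 0.64. None of the 5 lies on chromosome 7. Within the family, Cacng5 was nearest, at 1.15 and in place 206, and Cacng2 farthest, at 1.72 and in place 2806. With 4 libraries this likeness is a description.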

How the data were processed

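The authors deposited 1 table of raw read counts per gene symbol for each library, not normalized. Per the submitters' processing notes, FastQC, HISAT2, SAMtools, featureCounts (Subread) and DESeq2 1.30.0 were used with the build mm10. Libraries were stranded and depleted of ribosomal RNA, per the labels' protocols. Use of strand, multi-mapping settings and annotation are not given in the sources used here. Broken lines (11 per table) left 4 genes, none of them Cacng genes, without a count. No value column lacked a sample (0).

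The deposited counts were fitted with edgeR 4.0.16 in R 4.3.3 (filterByExpr with a minimum count of 10 and total of 15, TMM scaling, quasi-likelihood F-test, no covariates) over all 4 libraries. Benjamini-Hochberg adjustment ran over 21439 genes, with a threshold of 0.05. SE is the log2 fold change divided by the square root of F. CPM is after TMM scaling. The fit was tested on simulated data, in which 72% of 200 genes given a log2 change of 3 were recovered. Of the genes called there, 2.70% were false. Every simulated gene had the same spread between libraries (common coefficient of variation 44.5%), and the changed genes were drawn from the more abundant ones. Differences in cell content between libraries were not simulated. The share recovered therefore does not measure the power of the fit on the real libraries, where 0 genes passed. Smaller changes, such as those of the paralogs, were not simulated. Alternatives were DESeq2 1.42.0, its size factors, other filters, a prior count of 2, the replicate number as a block, scaling to 12 homeostatic microglia or 12 neuron markers (mean log2 of reads plus 0.5), and leaving out each library.

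All 49993 symbols matched RefSeq for GRCm38.p6, whose coordinates and promoters (found for 6 members) are given, counted from 1. Transcript lengths and overlaps come from GENCODE M21 (GRCm38), through RefSeq accessions. Similar transcripts were sought with BLAST 2.17.0, and coding sequences were aligned with Biopython 1.88. Members, lists and tests were chosen with earlier results of these data known. All members were named, with the 2 most abundant genes of each of 7 partner lists, genes within 100 kb of the cluster (named when tested or nearest) and the 5 genes most like Cacng6. Other names were added after values were seen. One item of this neighbourhood is not reported here. No proteins are shown.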

Additional observations from a re-analysis of the deposited data

How the results depend on the processing

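Of 122 values recomputed with another choice, 99 were classed as the same, 14 as stronger, 7 as moved and 2 as reversed. The same meant an equal count of genes, or an unchanged direction and call for a paralog. For Cacng6 and its share, which have no call, it meant a shift under the pooled SD within groups. The 7 that moved were of Cacng6 or its share and kept their direction. All genes past the threshold numbered 0 with edgeR (quasi-likelihood, 1072 with an unadjusted p under 0.05), 90 with DESeq2, 4333 with the replicate block and from 0 to 524 with a library left out (48 without AD replicate 1, 524 without AD replicate 2). Partner genes past it numbered 0 (11 unadjusted), 1 with DESeq2 (Nptx2), 36 with the replicate block and from 0 to 16 with a library left out, the 16 without AD replicate 2. The 11, the 1 and the 36 were each out of 52 partner genes tested, and with a library left out 52 to 54 were tested. The shares over all genes were 5% unadjusted (of 21439), 0.465% with DESeq2 (of 19360) and 20.2% with the replicate block (of 21439). All 36 partner genes were higher in AD/KO, against 13.4% of all genes. Cacng paralogs past the threshold numbered 0 of 6, and 6 of 6 with the replicate block, all higher in AD/KO. With the block, their log2 fold changes ran from 1.27 to 2.34 and adjusted p from 0.00250 to 0.0260 (edgeR quasi-likelihood). The count was 0 in each fit that left out 1 library. The cause was not tested.

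The labels do not say that a replicate number marks a shared litter or day, and the correlation across genes between same-numbered libraries, each taken relative to its group mean, was 0.68 from only 2 numbers. Neuron markers were higher in replicate 2 of each group.

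Scaled to the neuron markers, Cacng2 (−0.17) and Cacng8 (−0.11) reversed. Scaled to the homeostatic markers, the median of all genes was 0.85 and that of the 6 paralogs 2.66. The fitted log2 fold change of Cacng6 was 4.59 with a prior count of 2 and from 5.59 (without AD/KO replicate 2) to 8.92 (without AD replicate 2) with a library left out. The difference in its share of Cacng reads was 1.71 percentage points, 1.93 per kb of transcript, and from 1.67 to 1.75 with a library left out. Depth limits Cacng1 in every library and Cacng6 in AD replicate 1.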

Other observations

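A pair of genes near the family, named after their values were seen, also had few reads in AD. Tmem114, a 4-transmembrane relative of the Cacng proteins, had 0 reads in both AD libraries and 3 and 12 in the AD/KO libraries, too few to be tested. Nptx2, a secreted pentraxin that clusters AMPA receptors and is induced by neuronal activity, had 18 and 26 reads in AD and 112 and 299 in AD/KO. Its level was 1.45 ± 0.206 CPM (SD, n = 2) in AD and 11.03 ± 7.34 in AD/KO. Its log2 fold change was 2.92 (SE 0.68), and 1.15 with libraries scaled to the neuron markers. It did not pass the threshold with edgeR (quasi-likelihood, Benjamini-Hochberg adjusted p = 0.680), and did by DESeq2 (adjusted p = 0.0219).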
